A study of Mus musculus with 2 samples.

Results

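Tuft cells are rare chemosensory cells of the intestinal epithelium. They detect luminal metabolites through a taste-type signalling pathway that ends in the cation channel TRPM5, they release interleukin-25, and they carry the enzymes that turn arachidonic acid into leukotrienes and prostaglandins. In the first arm of eicosanoid synthesis, 5-lipoxygenase works with its activating protein to make leukotriene A4, which leukotriene C4 synthase conjugates to glutathione. In the other arm, cyclooxygenase makes prostaglandin H2, which the hematopoietic prostaglandin D synthase converts to prostaglandin D2. Here 10 genes of these functions were followed: the tuft cell markers Dclk1, Trpm5, Rgs13 and Avil, the cytokine Il25 and its receptor gene Il17rb, and the eicosanoid genes Alox5ap, Ltc4s, Hpgds and Ptgs1. They were chosen by gene symbol, and every probe set annotated to 1 of these symbols alone was read. Of the 10 genes, 9 had such a probe set, out of 18193 genes with one on the array, and together they had 19 of the 45037 non-control probe sets. Ptgs1 was not analysed here.

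The RNA came from scrapings of mouse jejunum, which hold the mucosa with its epithelial, immune and stromal cells. One array was hybridised with RNA of wild type mice and 1 with RNA of XBP1 knock-out mice. Each RNA was a pool of 3 mice, so there was 1 array per group and no spread between replicates could be measured. The question was what the loss of XBP1, a transcription factor that the stress sensor IRE1 activates by mRNA splicing, changes in this tissue. The labels give no strain, age, sex, deleted exon or cell type of deletion. All differences below are therefore differences between 2 pools, without a p-value. A change in the number of tuft cells and a change in RNA per tuft cell cannot be told apart in such tissue.

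Signals are MAS5 signals, scaled so that the 75th percentile of both arrays was equal. A signal at or below 68.1, the median over both arrays, was treated as not distinguishable from background, and this value is called the floor. The log2 ratio is XBP1 knock-out minus wild type. A ratio with 1 pool at the floor is a bound. Where both were, no ratio is given. A gene takes the value of its brightest probe set. Over all 12826 measured genes, the median log2 ratio was -0.11, and 39.8% of ratios were above 0. Among genes past 2-fold, 30.6% were higher. That share was 41.9% in the authors' own scaling, 41.4% after quantile normalization, and 68.9% and 95.4% when labelling or hybridisation spikes, foreign RNAs added at those steps, set the scale. Each other scaling moved the median of all measured genes upward, to between -0.06 and 0.62. A ratio above 0 in the 75th percentile scaling was thus likely to stay so in all 6 scalings. Such a count is no independent check. For want of replicates, the only error scale is the scatter among probe sets that read 1 gene. Its SD on the log2 scale was 0.29 for bright probe sets, above 2 times the floor in both pools (3412 genes), and 0.45 for dim ones, up to 10 times the floor (1995 genes). It holds no variation between mice. The tissue label was checked against enterocyte markers. All 9 enterocyte genes read, among them Fabp1 and Apoa1, were bright in both pools, from 16523 to 90516. The 4 probe sets of Xbp1 had log2 ratios from -0.26 to 0.06. The labels do not say whether they lie in the deleted part, so they check neither label.

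The upstream sequence of 3 of the genes is shown because Rgs13 had the largest ratio of the set and because Avil and Hpgds were the only ones with a match to a searched motif. RefSeq windows of assembly GRCm38.p6 were found for 8 of the 10 genes, 9 windows in all since Dclk1 has 2 start sites. Each is the 250 bases before a transcript start, written in the direction of transcription, and capitals mark a motif match. The windows lie at chr1:144177373-144177622 on the minus strand for Rgs13, at chr10:127000459-127000708 on the plus strand for Avil and at chr6:65144731-65144980 on the minus strand for Hpgds.
Rgs13: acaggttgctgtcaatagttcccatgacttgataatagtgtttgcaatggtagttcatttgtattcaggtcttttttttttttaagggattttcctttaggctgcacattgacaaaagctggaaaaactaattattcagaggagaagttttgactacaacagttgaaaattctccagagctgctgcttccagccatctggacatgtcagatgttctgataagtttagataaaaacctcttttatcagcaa
Avil: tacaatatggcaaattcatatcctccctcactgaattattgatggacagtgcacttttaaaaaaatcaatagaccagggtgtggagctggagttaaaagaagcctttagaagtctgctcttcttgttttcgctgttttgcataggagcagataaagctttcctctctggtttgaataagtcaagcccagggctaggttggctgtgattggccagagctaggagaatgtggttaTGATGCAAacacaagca
Hpgds: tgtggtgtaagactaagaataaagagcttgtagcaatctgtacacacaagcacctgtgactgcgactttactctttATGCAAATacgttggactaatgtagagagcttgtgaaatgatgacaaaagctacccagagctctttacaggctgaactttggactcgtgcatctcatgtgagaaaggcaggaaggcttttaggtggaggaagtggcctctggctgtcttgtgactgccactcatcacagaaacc

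Motifs were searched on both strands. The octamer ATGCAAAT, the letters bound by POU factors such as POU2F3, the factor on which tuft cells depend, was found in the Hpgds window and in 1.60% of all 32851 windows. The core TGATGCAA of elements bound by ATF4 and CHOP was found in the Avil window and in 0.791% of all windows. The UPRE core TGACGTG, to which XBP1 binds, and the cyclic AMP element TGACGTCA, which shares its first 6 letters, were found in 0 of the 9 windows and in 1.65% and 1.55% of all windows. A match describes letters and not a site in use.

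Of the 9 genes with a probe set, 8 exceeded the floor on at least 1 array. Of these, 5 had ratios above 0 and 3 below 0, and the median log2 ratio was 0.61. At least 2-fold higher in the XBP1 knock-out pool was 1 gene, Rgs13, where 2.25% of all measured genes were, and 0 were at least 2-fold lower, where 5.08% of all measured genes were. At 1 of 8, the count past 2-fold is too small to be set against these shares. At least 1.5-fold higher were 5 of the 8, where 7.84% of all measured genes were, and 0 were at least 1.5-fold lower, where 16.3% were. At 3-fold the counts were 1 and 0, where 0.429% were higher and 1.05% lower. The 7 genes above the floor in both pools had a median of 0.62, against -0.08 over the 10297 genes of the array with that property. The higher genes were the markers Dclk1, Trpm5, Rgs13 and Avil and the leukotriene gene Alox5ap. The lower ones were Il17rb, Ltc4s and Hpgds. By probe set, 14 of 19 exceeded the floor on at least 1 array, 9 of them on both, with 10 ratios above 0 and 4 below 0. Past 2-fold were 1 of the 14 upward and 0 downward, where 2.48% and 4.53% of measured probe sets with 1 gene symbol were.

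**Figure D1:**
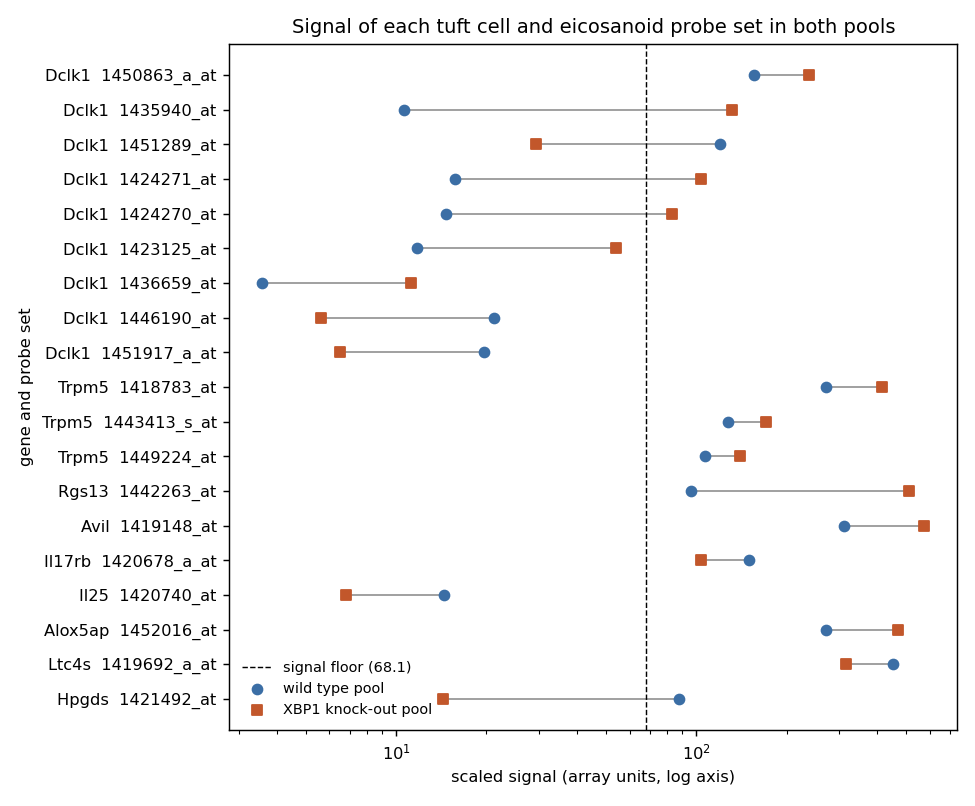
Scaled signal (array units, log axis) of the 19 probe sets of the 9 genes, with a circle for the wild type pool, a square for the XBP1 knock-out pool and a dashed line at the floor of 68.1. Rgs13 spans from 96.3 to 511, while Dclk1 probe sets lie on both sides of the floor and run in both directions.

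Rgs13 encodes a regulator of G protein signalling that accelerates GTP hydrolysis by G alpha subunits, and it is a marker of tuft cells that germinal centre B cells and mast cells also express. Its single probe set read 96.3 with wild type and 511 with XBP1 knock-out RNA. That is a log2 ratio of 2.41, or 5.31-fold higher, from 1.41 times the floor to 7.51 times the floor. The wild type signal was thus dim, and no second probe set of the gene was there to check the value. The ratio ran from 2.41 to 3.19 over the 6 scalings tried. With the floor raised to the 75th percentile the wild type signal fell under it, and the ratio became a bound of at least 0.60, under 2-fold. Among genes whose brighter array was at most 10 times the floor, 2.71% passed 2-fold upward and 5.79% downward.

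With only 2 arrays, a gene's pattern is 1 pair of signals. Distances to Rgs13 were taken on log2 signals, with any signal under the floor raised to it. Among 7718 other genes that reached 4 times the floor, the 3 nearest were Extl1, Angptl8 and Retnlb. Their distances were 0.37, 0.38 and 0.50. Retnlb read 15.3 in the wild type pool, so its distance was computed from the floor and not from its own signal there. Extl1 read 121 and 451, and Angptl8 read 125 and 531, wild type first. Retnlb, the goblet cell cytokine that type 2 cytokines induce, read below the floor and 525, so its ratio is a bound of at least 2.95, or at least 7.71-fold higher.

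Avil encodes advillin, an actin-bundling protein of the villin family found in tuft cells and sensory neurons. Its single probe set read 311 with wild type and 576 with XBP1 knock-out RNA. The log2 ratio of 0.89, or 1.85-fold, lay under 2-fold but past the SD of 0.45 between dim probe sets of a gene. It exceeded 2-fold only where spikes were made equal, at 1.21 with labelling and 1.67 with hybridisation spikes.

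Trpm5 encodes the calcium-activated cation channel that ends the taste-type cascade. Its brightest probe set read 271 with wild type and 415 with XBP1 knock-out RNA, a log2 ratio of 0.62. Its second read 127 and 171, a ratio of 0.43. The dimmest read 107 and 140, a ratio of 0.40. All 3 probe sets of Trpm5 thus read higher in the XBP1 knock-out pool by less than 2-fold.

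Dclk1 encodes a doublecortin-like kinase that binds microtubules and is the most widely used marker of intestinal tuft cells. Its 9 probe sets did not read alike. The brightest, the only one above the floor in both pools, read 156 and 238, a log2 ratio of 0.61. Another 3 were at the floor in the wild type pool and above it in the XBP1 knock-out pool, at 132, 104 and 83.1, with ratios of at least 0.95, 0.61 and 0.29. The fifth measured probe set went the other way, from 120 in the wild type pool to below the floor, a ratio of at most -0.82. The remaining 4 were at or below the floor in both pools. Of the 5 measured probe sets, 4 therefore read higher and 1 lower. The probe set that read lower was designed on the same expressed sequence tag as 2 of those that read higher. Over all 9 probe sets the median ratio of Dclk1 was 0, with 4 of them at the floor in both pools, and over probe sets without a suffix the brightest gave at least 0.95.

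Il25 encodes interleukin-25, the cytokine by which tuft cells activate group 2 innate lymphoid cells. Its probe set was at or below the floor in both pools, so no ratio is given. By this floor the Il25 signal was not distinguishable from background, and no detection limit was measured. Il17rb encodes the chain of its receptor that binds it, which tuft cells and innate lymphoid cells express. It read 150 with wild type and 103 with XBP1 knock-out RNA, a log2 ratio of -0.53. Its ratio stayed below 0 under 5 scalings and was 0.25 under the hybridisation-spike scaling, which moved the median of all measured genes to 0.62.

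In the leukotriene arm, the 2 listed genes differed in sign. Alox5ap encodes the membrane protein that presents arachidonic acid to 5-lipoxygenase. It read 270 with wild type and 471 with XBP1 knock-out RNA, a log2 ratio of 0.80, or 1.75-fold, and under 2-fold unless spikes were made equal. Ltc4s encodes leukotriene C4 synthase, a membrane protein of the same family that makes the first cysteinyl leukotriene. It read 453 and 315, a log2 ratio of -0.52, which became 0.26 with the hybridisation spikes made equal. The difference between the pools was thus 1.33 on the log2 scale larger for Alox5ap than for Ltc4s, and both genes have 1 probe set.

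In the prostaglandin arm, Hpgds encodes the prostaglandin D synthase of hematopoietic and tuft cells. It read 87.3 in the wild type pool, 1.28 times the floor, and was below the floor in the XBP1 knock-out pool. The log2 ratio is at most -0.36. With the floor lowered to the 25th percentile it was at most -2.16, and when hybridisation spikes set the scale both pools were at the floor. The signal was too dim to give the size of the difference.

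**Figure D2:**
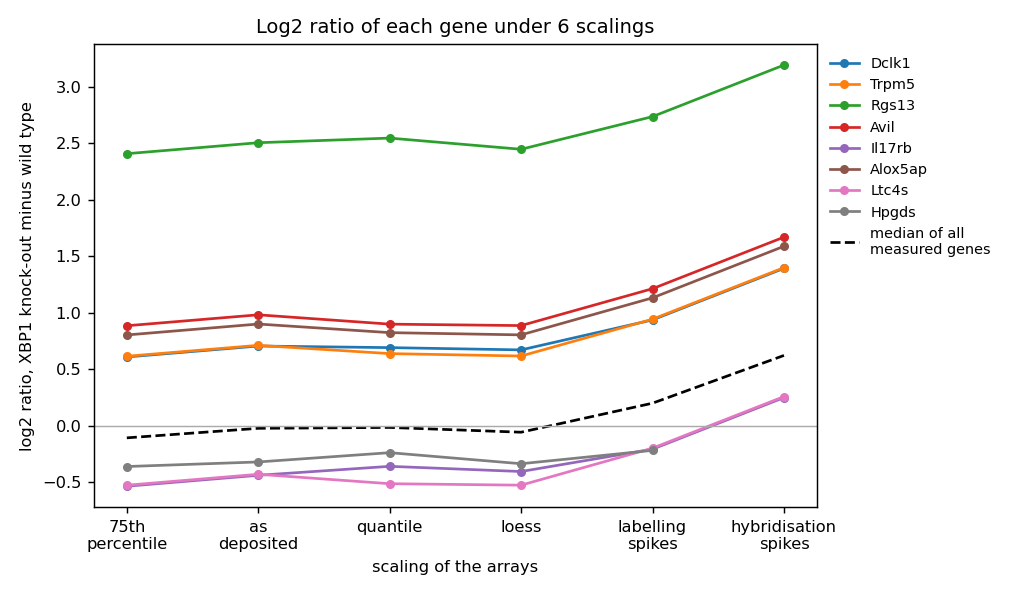
Log2 ratio (XBP1 knock-out minus wild type) of the 8 measured genes under 6 scalings of the arrays, with a dashed line for the median of all measured genes. Rgs13 stays at 2.41 or above, 4 genes lie between 0.61 and 1.67, and Il17rb and Ltc4s lie below 0 except with the hybridisation spikes made equal. Hpgds has no value in that setting.

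Other genes known from tuft cells were read from a list of 44, of which 39 had a probe set and 34 were measured. Of the 34, 24 had ratios above 0 and 10 below 0, where 39.8% of all measured genes were above 0. By the brightest probe set, none had a ratio or a bound past 2-fold, where 2.25% of all measured genes were higher and 5.08% lower. Bounds can hide larger differences. With the floor at the 25th percentile, 5 were at least 2-fold higher and 4 lower. Dimmer probe sets of Cd24a, Inpp5d and Fes passed 2-fold, at 1.05, -1.02 and at most -1.39. The probe sets of Fyb differed in sign, at -0.38 and 0.68, as did those of Ptpn6, at 0.26 and -0.55. Those of Rgs2 also did, with 0.115 for the brightest and -0.08, -0.30 and at most -0.56 for the others. The median log2 ratio was 0.14, against -0.11 over all measured genes. It was 0.19 over the 24 genes above the floor in both pools. The median of this list was above 0 in each of the 6 scalings, but it was lowest in this one, so the others could not test its sign.

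At the upper end, Pik3r5, a regulatory subunit of phosphoinositide 3-kinase gamma, read 144 and 270, a log2 ratio of 0.91. Siglecf, a sialic acid receptor shared by tuft cells and eosinophils, read 161 and 280, a ratio of 0.80. Hmx2, a homeobox gene, was at least 0.63. At the lower end, Tas1r3, a shared subunit of sweet and umami taste receptors, had -0.95. Itpr2, a receptor that releases calcium from the endoplasmic reticulum, had -0.87, and the sweet taste receptor gene Tas1r2 at most -0.75. A dimmer probe set of Itpr2 gave -1.33, past 2-fold, while its other 3 above the floor in both pools, the brightest included, ranged from -0.87 to -0.59. Hmx2 and Tas1r2 were each under the floor in 1 pool, so their differences may be larger than the bounds.

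The defining factors of the lineage were near or below the floor. Pou2f3, named here outside the naming rule for its role, was below the floor in the wild type pool and at 70.7 in the XBP1 knock-out pool, a bound of at least 0.05. Gfi1b, a zinc finger repressor also named for its role, was below the floor and at 102, a bound of at least 0.58. Chat, which makes the acetylcholine that tuft cells release, was at or below the floor in both pools.

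The enzymes and transporters of prostaglandins held the largest differences among the eicosanoid lists, in 2 genes of prostaglandin breakdown. Of 15 genes, 13 had a probe set and 10 were measured. Ratios were above 0 for 2 and below 0 for 8, where 39.8% of all measured genes were above 0. At least 2-fold lower were 2 genes and higher 0, where 5.08% and 2.25% of all measured genes were. The median log2 ratio was -0.19, but 0.10 with the labelling and 0.46 with the hybridisation spikes made equal.

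Hpgd encodes 15-hydroxyprostaglandin dehydrogenase, the enzyme that begins the inactivation of prostaglandins. It read 18959 with wild type and 6402 with XBP1 knock-out RNA, 2.96-fold lower. A second, dimmer probe set read 575 and 126, a log2 ratio of -2.19. Ptgr1 encodes a reductase that acts on the product of that step and on leukotriene B4. It read 19468 and 5834, 3.34-fold lower. Under the hybridisation-spike scaling, the log2 ratios were -0.78 for the brightest Hpgd probe set and -0.95 for Ptgr1. Both stayed below 0 but within 2-fold. No value is given here for the dimmer Hpgd probe set in that scaling. The summed signal of 9 enterocyte markers differed between the pools by -0.69 on the log2 scale, and the part of enterocytes in the Hpgd and Ptgr1 ratios was not tested.

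Pla2g4a, the cytosolic phospholipase that frees arachidonic acid, read 156 and 241, a log2 ratio of 0.63. Ptgds, the other prostaglandin D synthase, was at least 0.20. The inducible cyclooxygenase gene Ptgs2 read 83.0 in the wild type pool and was at the floor in the other. The prostaglandin E synthase gene Ptges was at or below the floor in both. Cbr1, a carbonyl reductase, had -0.63 in this setting and 0.15 with the hybridisation spikes made equal.

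Of 18 leukotriene and lipoxygenase genes, 16 had a probe set and 11 were measured. Ratios were above 0 for 3 and below 0 for 8, where 39.8% of all measured genes were above 0. The median was -0.43, but 0.36 with the hybridisation spikes made equal. At least 2-fold lower was 1 gene and higher 0, where 5.08% and 2.25% of all measured genes were. The lower gene was Ggt5, a gamma-glutamyl transferase that converts leukotriene C4 to D4. It read 205 and 101, 2.04-fold lower, and the count was 0 in 9 of the 11 alternatives tried. Dpep1, a dipeptidase that converts leukotriene D4 to E4, read 22799 and 11658, a log2 ratio of -0.97, and a second probe set gave -0.99. Aloxe3, an epidermal-type lipoxygenase, had -0.91. At the upper end, Alox5, which encodes 5-lipoxygenase itself, read 146 and 193, a ratio of 0.41. Mgst2, which can also make leukotriene C4, had 0.16, and the leukotriene C4 exporter gene Abcc1 had 0.04. In the pathway of cysteinyl leukotrienes, the ratios stood at 0.41 for Alox5, 0.80 for Alox5ap, -0.52 for Ltc4s and 0.16 for Mgst2. They were 0.04 for Abcc1, -1.03 for Ggt5 and -0.97 for Dpep1. With the hybridisation spikes made equal, Ltc4s had 0.26, Ggt5 -0.24 and Dpep1 -0.18. Whether these signals come from the same cells was not tested.

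Receptors for eicosanoids were mostly dim. Of 16 genes, 15 had a probe set and 7 were measured, of which 3 exceeded the floor in both pools. Ratios were above 0 for 2 and below 0 for 5, where 39.8% of all measured genes were above 0. The median was -0.48. Scaling on the hybridisation spikes brought it to -0.023. At least 2-fold lower was 1 gene and higher 0, where 5.08% and 2.25% of all measured genes were. The lower gene was Ltb4r1, the high-affinity leukotriene B4 receptor, which read 470 and 201, 2.34-fold lower. Ptger4, a prostaglandin E2 receptor, read 5143 and 5768, a ratio of 0.17. The cysteinyl leukotriene receptor genes Cysltr1 and Cysltr2 and the prostaglandin D2 receptor gene Ptgdr2 were at or below the floor in both pools.

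The type 2 cytokine circuit joins tuft cells to innate lymphoid cells, which answer interleukin-25 with interleukin-13. Of its 19 genes, 17 had a probe set and 9 were measured, Il17rb among them. Ratios were above 0 for 4 and below 0 for 5, where 39.8% of all measured genes were above 0. The median was -0.11, which was 0.22 with the labelling and 0.68 with the hybridisation spikes made equal. Only Retnlb was at least 2-fold higher, where 2.25% of all measured genes were, and 0 were at least 2-fold lower, where 5.08% were. Il4, Il5, Il9, Il13 and Tslp were at or below the floor in both pools. Crlf2, the receptor chain for thymic stromal lymphopoietin, had 0.93, and Il33, the alarmin of epithelial and stromal cells, 0.59.

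**Figure D3:**
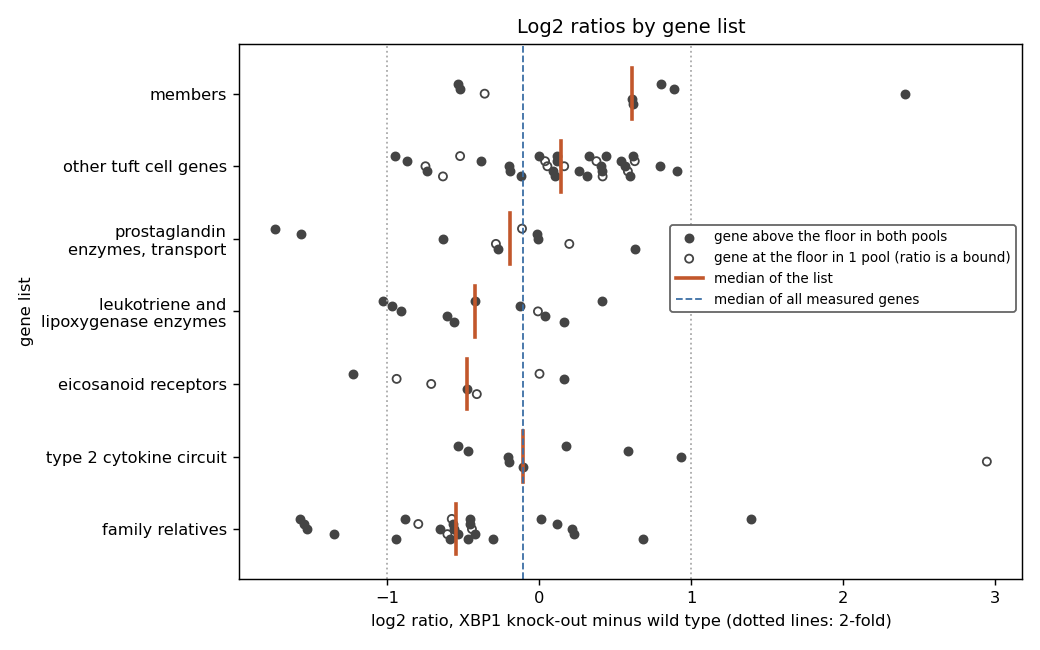
Log2 ratio (XBP1 knock-out minus wild type) of each measured gene in the set of 10 and in 6 related lists, with open circles for bounds, an orange bar at each median, a blue dashed line at the median of all measured genes, -0.11, and dotted lines at 2-fold. The medians run from -0.55 for the family relatives to 0.61 for the 8 measured genes of the set, before spikes are used for scaling.

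Several of the genes are also expressed outside tuft cells, so markers of those cells were read in the same pools. Each sum below runs over the markers of a list that exceeded the floor in both pools, so that it holds the same genes in each, and leaves out genes that crossed the floor. Of 15 tuft cell markers, which include the 10 genes, 8 entered. Among these were 7 of the 10 genes, so the sum largely restates values given above. Rgs13 alone read 96.3 and 511. The sum over the 8 was 1893 with wild type and 2832 with XBP1 knock-out RNA. That difference of 0.58 on the log2 scale was above 0 in all 6 scalings. It was lowest in this scaling, as were the mast cell and the smooth muscle and fibroblast sums below. The other scalings therefore did not test the sign of these sums.

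Mast cells express Rgs13, Alox5ap, Ltc4s and Hpgds. Of their 12 markers, 4 entered the sum, at 570 and 1007, a log2 difference of 0.82, above 0 in all 6 scalings. It was carried by the genes of 2 mucosal mast cell proteases. Mcpt1 read 79.2 and 335, 4.23-fold higher, and Mcpt2 read 135 and 413, 3.05-fold higher. They are related genes of 1 family, and whether their probe sets read each other's transcripts was not tested. Gata2 had -0.97, Cpa3 at most -0.65 and Kit -0.16, which turned above 0 with either spikes made equal. A second Kit probe set, above the floor in both pools, read 110 and 138, a log2 ratio of 0.33. The other 7 markers, among them Fcer1a, Ms4a2 and Hdc, were at or below the floor in both pools. The part of mast cells in the Rgs13 and Alox5ap ratios was not tested.

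Markers of germinal centre and other B cells, which share Rgs13, summed to 1465 and 1354 over 6 genes, a log2 difference of -0.11, and 0 of 8 measured genes had a ratio or bound past 2-fold. That difference was above 0 in 2 of the 6 scalings, both set by spikes. The brightest probe set of Bcl6 had 0.06, but a dimmer one read 276 and 123, a log2 ratio of -1.17, past 2-fold. Macrophage and dendritic cell markers, which share Alox5ap, Ltc4s and Hpgds, summed to 8566 and 5592 over 10 genes, a difference of -0.62 that turned to 0.17 with the hybridisation spikes made equal. Itgax, C1qc and Cd68 were 2.46-fold, 2.22-fold and 2.12-fold lower. Under the labelling-spike scaling they were within 2-fold, at -0.97, -0.82 and -0.75, and under the hybridisation-spike scaling at -0.52, -0.37 and -0.30. Mrc1 had 0.54 and Itgam 0.26, both above 0 in all 6 scalings. T cell and innate lymphoid cell markers, which share Il17rb, summed to 2646 and 1918 over 6 genes, a difference of -0.46 that turned to 0.32 with the hybridisation spikes made equal. All 9 measured genes had ratios or bounds below 0 in the 75th percentile scaling. The shares of macrophages, dendritic cells and lymphocytes in the Ltc4s, Hpgds and Il17rb ratios were not tested. Of 8 eosinophil and neutrophil markers with a probe set, only Siglecf exceeded the floor in both pools. S100a8 was at least 0.17 and Mpo at most -0.91, and Epx, Prg2 and Ccr3 were at or below the floor in both.

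Stromal markers lay in both directions. The smooth muscle and fibroblast sum over 7 genes was 2342 and 2600, a log2 difference of 0.15 that was above 0 in all 6 scalings. The collagen genes Col3a1 and Col1a2 had 0.59 and 0.30, and the brightest probe set of Col1a1 was at least 2.24-fold higher. A second Col1a1 probe set, above the floor in both pools, read 78.5 and 84.6, a log2 ratio of only 0.11. The muscle genes Acta2, Tagln and Myh11 had -0.23, -0.29 and -0.77, and all 3 turned above 0 with the hybridisation spikes made equal. Of endothelial markers only Kdr exceeded the floor in both pools, with -0.36, while Tek and Emcn were at least 0.44 and 0.15 and Cdh5 at most -0.45. The part of stromal cells in the ratios of the 10 genes was not tested.

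**Figure D4:**
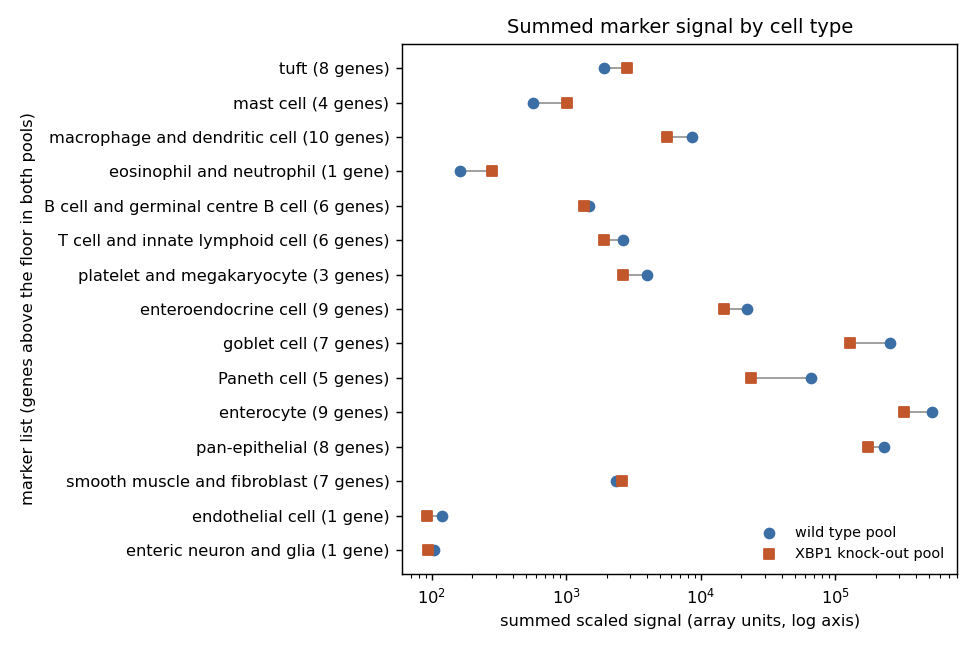
Summed scaled signal (array units, log axis) of the marker genes that exceeded the floor in both pools, for 15 cell types, with a circle for the wild type pool and a square for the XBP1 knock-out pool. Tuft cell, mast cell and smooth muscle and fibroblast sums, and Siglecf alone for eosinophils, stood higher in the XBP1 knock-out pool, and enterocyte, goblet and Paneth cell sums lower in this scaling.

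Sums of most other epithelial cell types were lower in the XBP1 knock-out pool, but not all of their markers were. Enteroendocrine markers summed to 22233 and 14887 over 9 genes, a log2 difference of -0.58. Goblet cell markers summed to 255552 and 127825, and Muc2, the main intestinal mucin, was 10.1-fold lower and Fcgbp 2.31-fold lower. The Paneth cell sum of 66599 and 23840 was carried by Lyz1, Paneth lysozyme, and the lectin gene Itln1, which were 9.59-fold and 15.9-fold lower. The Paneth cell genes Mmp7 and Ang4 had 0.50 and 0.45, above 0 in all 6 scalings, as the tuft cell markers Dclk1, Trpm5, Rgs13 and Avil were. Because the other scalings raised most ratios, this is no independent check. Under the hybridisation-spike scaling the enteroendocrine difference was 0.21 and the enterocyte difference 0.098, while the goblet and Paneth cell differences stayed below 0. These sums rest on a few bright genes and carry no measure of error.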

How the data were processed

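Per the labels, 2 Affymetrix Mouse Genome 430 2.0 arrays were hybridised, each with the pooled RNA of 3 mice. The deposited file holds 1 intensity per probe set, a MAS5 signal per the submitters' processing notes, with no detection calls used here and the MAS5 version not given. Both deposited columns have a mean of 500 once 2 percent are trimmed from each end, so the authors had scaled each array to 1 target. The number of arrays limits the precision, and no test was made.

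The array table holds 45101 probe sets, 64 of them controls. The platform annotation gave 1 symbol for 34945, several for 932 (left out) and none here for 9160. Symbols were updated by Entrez number through the RefSeq table of GRCm38.p6, which held 99.4% of the numbers. Scale factors were 1.03 for wild type and 0.967 for XBP1 knock-out. Scaling came first, then the floor, then log2.

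Genes and lists were chosen with earlier results of these data known. All 10 genes are named. From the lists, genes past 2-fold and up to 3 at each end are named, with others for their role, chosen after their values were seen. Alternatives were the deposited scaling, quantile, loess (span 0.3), labelling spikes (27 probe sets) or hybridisation spikes (18) made equal, 2 floors, 2 ways to pick probe sets and thresholds of 1.5-fold and 3-fold. The calculation was tested on simulated data. Python 3.11.15, pandas 2.3.3 and statsmodels 0.14.6 were used.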

Additional observations from a re-analysis of the deposited data

How the results depend on the processing

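With 1 array per group nothing was left out in turn, and no paired analysis was possible because each group holds 1 sample. Values below are counts at least 2-fold higher or lower, or median log2 ratios, and the cause of each move was not tested. For the set of 10 genes, the higher count was 1 and the median 0.61. The count was 3 with labelling spikes equal, 5 with hybridisation spikes equal, 0 with the floor at the 75th percentile and 5 at 1.5-fold. The lower count, 0, was 1 with the floor at the 25th percentile. The median was 0.94 and 1.40 with the respective spikes equal and 0.21 as the median over probe sets. Under labelling spikes the list medians were 0.45 for other tuft cell genes, 0.10 for prostaglandin genes, -0.10 for leukotriene genes, 0.22 for the type 2 circuit and -0.24 for family relatives. Under hybridisation spikes they were 0.88, 0.46, 0.36, 0.68 and 0.22 in that order, and -0.023 for receptors. The receptor median was -0.16 with the floor at the 75th percentile. Of other tuft cell genes, none at least 2-fold higher in the main setting, 1 was in the deposited scaling, 2 and 14 with labelling and hybridisation spikes equal, and 5 each with the lower floor and at 1.5-fold, with 4 and 5 lower in these last settings. Of prostaglandin genes, 1 was higher with hybridisation spikes equal, the lower floor or 1.5-fold, and the lower count of 2 became 0 with hybridisation spikes equal and 1 at 3-fold. The leukotriene count of 1 lower became 0 in the deposited, quantile, loess and both spike scalings, with the higher floor, with either choice of probe sets and at 3-fold, while it was 3 with the lower floor and 4 at 1.5-fold, and 1 gene was higher with hybridisation spikes equal. The receptor count of 1 lower became 0 with either spikes, the higher floor and 3-fold, 4 with the lower floor, where 1 was higher, and 3 at 1.5-fold. In the type 2 circuit, 1 higher became 2 in the deposited scaling and with labelling spikes, 3 with hybridisation spikes and at 1.5-fold, and 0 with the higher floor, and 2 were lower with the lower floor. Among family relatives, 1 higher became 2 with labelling spikes and at 1.5-fold, 4 with hybridisation spikes and 0 with the higher floor, without suffix and at 3-fold. Their 4 lower became 0 with hybridisation spikes and at 3-fold, 10 with the lower floor and at 1.5-fold, and 1 with the higher floor. Over all measured genes, 288 higher and 652 lower became 711 and 321 with labelling spikes, 2641 and 126 with hybridisation spikes, 1139 and 2531 with the lower floor, 85 and 219 with the higher, 185 and 418 as medians over probe sets, 1005 and 2093 at 1.5-fold and 55 and 135 at 3-fold. Of the remaining such values, 157 stayed within 1.5 times, or within the SD of 0.29 for a median. Among single genes and probe sets, 104 values moved by less than that SD and 50 by more. The genes of the marker sums were chosen after seeing the data. Summing instead each pool's own markers above the floor, which mixes different genes, gave log2 differences of 0.60 for tuft, 0.57 for mast, 0.31 for eosinophil and neutrophil, 0.30 for endothelial and -2.15 for enteric neuron and glia markers. Dim signals limit Hpgds, Il25 and most Dclk1 probe sets.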

Other observations

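Relatives of the tuft cell genes in the same protein families were read as well. Of 33 relatives (other RGS, interleukin-17, doublecortin, TRPM and villin family genes), 31 had a probe set and 26 were measured, with 6 ratios above 0 and 20 below 0, where 39.8% of all measured genes were above 0. The median was -0.55, which turned to 0.22 with the hybridisation spikes made equal. At least 2-fold lower were 4 of the 26 and higher 1, where 5.08% and 2.25% of all measured genes were. The cation channel gene Trpm6, needed for magnesium uptake, read 240 and 80.6, and Trpm2 read 285 and 97.7, wild type first. A second probe set of Trpm6 gave -0.53, within 2-fold, and one of Trpm2 at most -0.87. Rgs14 read 695 and 241, and Dclk3 read 205 and 80.4. Capg, an actin-capping protein of the gelsolin family, was 2.62-fold higher, at 145 and 380, and its second probe set gave at least 1.17.

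Among the actin-binding relatives of Avil, Vil1, the villin of the brush border, had a log2 ratio of -0.56 and Gsn, gelsolin, -0.94, while Scin, scinderin, had 0.23 and Capg 1.39, both above 0 in all 6 scalings. Svil had -0.53 and Vill at most -0.58, and Avil had 0.89. Among the channels, Trpm4, the nearest relative of Trpm5, read 7095 and 3849, a ratio of -0.88, while Trpm7 had 0.22, above 0 in all 6 scalings, and Trpm5 had 0.62. These pairs are given as values and no test compared them. The 4 probe sets of Trpm7 ran from -0.44 to 0.22. Those of Gsn above the floor in both pools ran from -0.94 to 0.86, with only the dimmest of them above 0. Of the markers of enteric neurons and glia, only Gfap exceeded the floor in both pools, with -0.15. Ret was at least 2.83-fold lower and Tubb3 at most -0.78, and Elavl4, Uchl1 and S100b were at or below the floor in both pools.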
